A study of Mus musculus with 2 samples.

Results

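IRF2BP1, IRF2BP2 and IRF2BPL form a small family of transcriptional corepressors, and the peaks of the histone methyltransferase KMT2D around their 3 genes were described in a mouse hippocampal cell line. Irf2bp1 lay at chr7:19004058-19006763, Irf2bp2 at chr8:126588296-126593986 and Irf2bpl at chr12:86880703-86884814 on mm10. A peak was given to a gene where its summit fell inside the gene or within 100 kb of it. This gave 19 of the 3738 peaks in the list: 10 at Irf2bpl, 8 at Irf2bp2 and 1 at Irf2bp1. The genes were chosen by their peaks in the same list, so their counts and folds are a description and carry no test.

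HT22 is an immortalised mouse hippocampal line, and the cells used were a wild-type clone, untreated and sampled at 70% confluency. There was 1 library of chromatin precipitated with an antibody to KMT2D and 1 input library of the same genotype, so no value has a replicate check. Cells in which KMT2D lacks its SET methyltransferase domain, named in the design, were not analysed here. A list of binding sites holds no expression, so neither the hippocampal identity of the line nor the RNA level of the 3 genes was checked.

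KMT2D methylates lysine 4 of histone H3, mainly as the single methyl mark of enhancers, which can lie far from the genes they act on. IRF2BP1 and IRF2BP2 were found through their binding to IRF2, an interferon regulatory factor that represses transcription, and IRF2BPL is their paralog. The family shares a zinc finger near the start of the protein and a RING domain at its end. IRF2BP2 also works with VGLL4 and represses NFAT activity, while IRF2BPL, also named EAP1, is known from the hypothalamic control of puberty, and variants that truncate IRF2BPL cause a neurodevelopmental disorder in people.

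Sequence at gene starts was available for 4 places that bear on these peaks: the starts of the 3 genes and the start of Gm40491, a long non-coding RNA gene downstream of Irf2bpl. The starts of Irf2bpl and Gm40491 are shown because a KMT2D summit fell inside them, and those of Irf2bp1 and Irf2bp2 because no peak reached theirs. Each run is the RefSeq sequence of GRCm38.p6, whose main chromosomes are those of mm10, from 250 bases before to 50 after the start, read 5′ to 3′ on the strand of the gene. Capitals mark matches, on either strand, to any of 6 motifs: TGACTCA (AP-1 element), TGACGTCA (cyclic AMP response element, CRE), CATTCC (TEAD core), GGGCGG (GC box), the CCAAT box and the IRF element, which is GAAA repeated after a gap of 2 bases. The windows are chr12:86884765-86885064 (minus strand) for Irf2bpl, chr12:86833714-86834013 (minus) for Gm40491, chr8:126593937-126594236 (minus) for Irf2bp2 and chr7:19003808-19004107 (plus) for Irf2bp1.
Irf2bpl: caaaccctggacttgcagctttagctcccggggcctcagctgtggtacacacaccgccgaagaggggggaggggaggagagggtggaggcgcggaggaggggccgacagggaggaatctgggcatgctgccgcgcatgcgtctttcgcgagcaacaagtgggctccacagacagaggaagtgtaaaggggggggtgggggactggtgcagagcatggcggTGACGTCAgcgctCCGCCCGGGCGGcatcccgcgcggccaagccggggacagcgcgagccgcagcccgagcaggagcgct
Gm40491: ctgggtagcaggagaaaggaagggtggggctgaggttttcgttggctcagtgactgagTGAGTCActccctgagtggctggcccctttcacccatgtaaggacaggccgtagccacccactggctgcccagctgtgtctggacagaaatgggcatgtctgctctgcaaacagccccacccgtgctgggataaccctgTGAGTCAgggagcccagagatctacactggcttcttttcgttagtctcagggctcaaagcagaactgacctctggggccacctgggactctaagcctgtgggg
Irf2bp2: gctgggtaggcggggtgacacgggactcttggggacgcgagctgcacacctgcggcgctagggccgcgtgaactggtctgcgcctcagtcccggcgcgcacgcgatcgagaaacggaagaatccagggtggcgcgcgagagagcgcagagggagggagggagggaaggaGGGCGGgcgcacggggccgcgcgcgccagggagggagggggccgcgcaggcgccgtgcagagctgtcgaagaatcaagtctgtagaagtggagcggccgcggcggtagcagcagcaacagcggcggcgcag
Irf2bp1: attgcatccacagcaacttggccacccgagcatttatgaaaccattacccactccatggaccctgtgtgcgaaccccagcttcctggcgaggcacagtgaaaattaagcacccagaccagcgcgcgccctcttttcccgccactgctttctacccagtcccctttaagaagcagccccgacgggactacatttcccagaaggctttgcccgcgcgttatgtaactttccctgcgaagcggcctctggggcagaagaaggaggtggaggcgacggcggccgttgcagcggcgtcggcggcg

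The Irf2bpl window held 1 CRE, from 30 to 23 bases before the start, and 2 GC boxes between the CRE and the start, from 17 to 12 and from 11 to 6 bases before it. None of these matches overlapped another. The KMT2D summit lay at base 78 of the window, 173 bases before the start and upstream of all 3 matches, while the peak, chr12:86884559-86885120, spanned the whole window. A CRE was present in 1.79% of all 32850 start windows of this length (588) and in 18 of the 417 that held a KMT2D summit (4.32%). GC boxes were common, at 35.7% of all windows and 65.5% of those with a summit, and 19.5% of all windows had 2 or more. In protein-coding windows alone, a CRE was present in 2.23% and a GC box in 46.2%.

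The Gm40491 window held 2 AP-1 elements, the binding sequence of FOS and JUN proteins, from 192 to 186 and from 53 to 47 bases before the start. The summit, at base 45 of the window and 206 bases before the start, lay just upstream of the first of them. At least 1 AP-1 element stood in 5.2% of all windows and in 9.59% of the 417 with a summit, and 73 windows of all (0.222%) had 2 or more. The Irf2bp2 window held 1 GC box, from 81 to 76 bases before the start, and the Irf2bp1 window none of the 6 motifs. No IRF element, TEAD core or CCAAT box was found in any of the 4 windows, which says only that these letters are not there. A match is a sequence of letters and not a measured binding site.

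**Figure D1:**
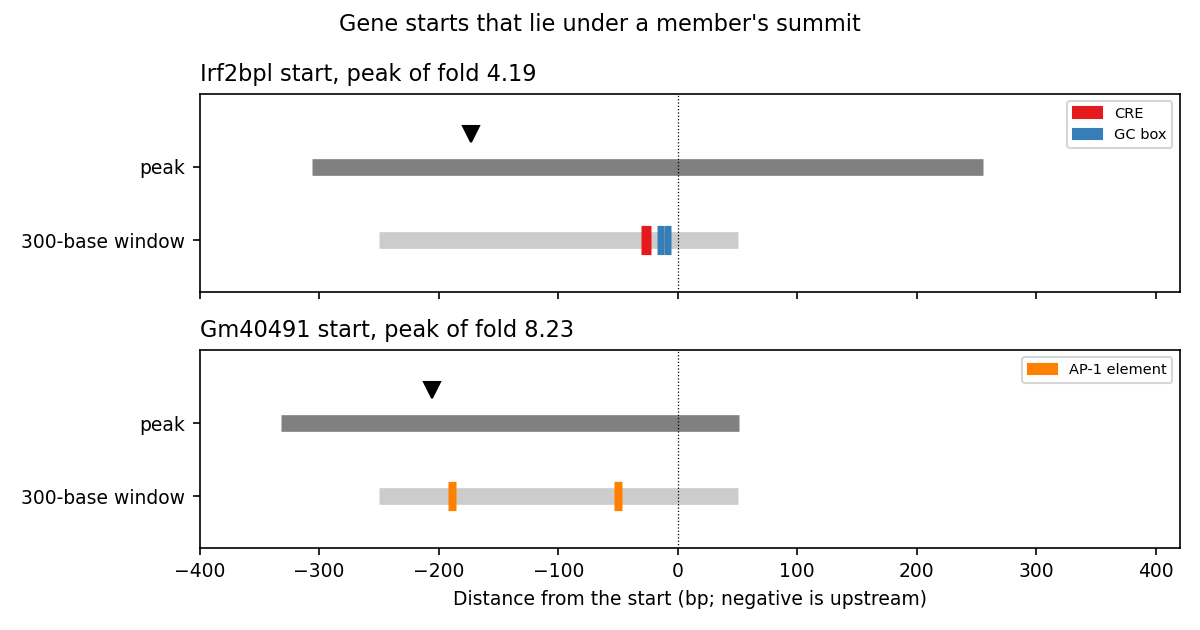
Peak interval (dark bar), summit (triangle), 300-base window (light bar) and motif matches (coloured) at the starts of Irf2bpl and Gm40491, against distance from the start in bp. The Irf2bpl summit is 173 bp upstream of the start, away from the CRE and GC boxes, and the Gm40491 summit is 206 bp upstream of the start, beside an AP-1 element.

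Base composition differed between these starts and did not follow which of them had a peak. The window of Irf2bp2 had 39 CpG dinucleotides and 71.7% G and C, above 94.9% of protein-coding windows or level with them in CpG count. Irf2bpl had 26 CpG (69.0% G and C) and Irf2bp1 had 23 (60.0%), against a median of 13 in protein-coding windows. The Gm40491 window had 4. The member start with the most CpG therefore had no peak over it. The peaks over the Gm40491 and Irf2bpl starts had folds of 8.23 and 4.19, from 39 fragments over a background of 3.86 and 43 over 9.51, so the order by fold rests on the local background. Windows that held a summit had a median of 27 CpG, against 7 over all start windows, coding or not.

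All 3 members had a summit inside or within 100 kb, as did 35.8% of the 21770 protein-coding genes of the RefSeq table. Irf2bp1 shared its count of 1 peak with many genes (4053 in all, itself included), whereas few had as many as the other members. At least 8 peaks, the count of Irf2bp2, were found at 87 protein-coding genes (0.4%), and at least 10, the count of Irf2bpl, at 27 (0.124%). These 27 include neighbours that share the same summits, such as a group around Per1 and Aurkb on chromosome 11 and several predicted genes on chromosome 6, where the highest count was 17. The rule itself used these counts, and nothing is read from them beyond the order.

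**Figure D2:**
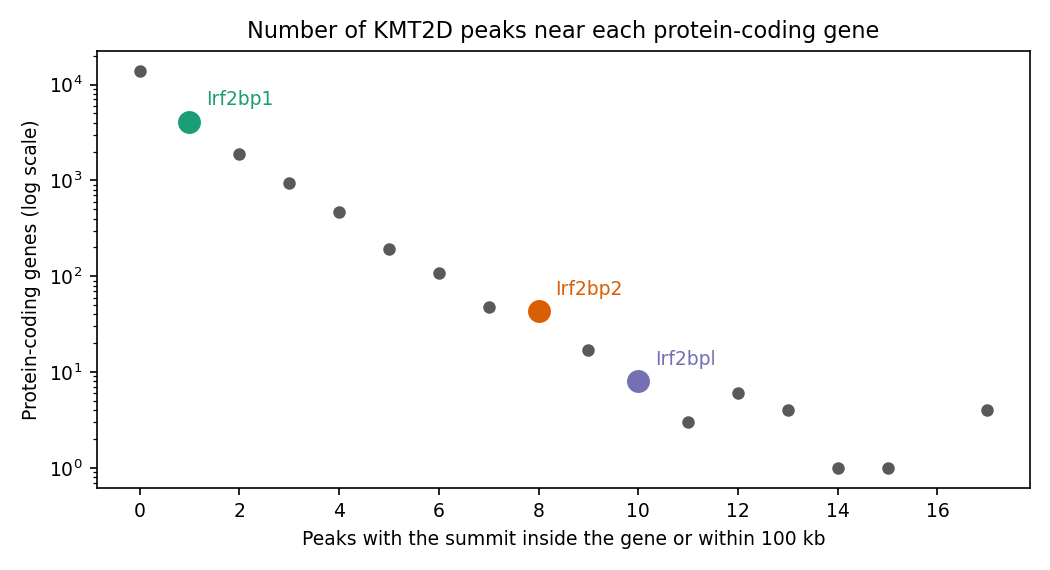
Number of protein-coding genes (log scale) against the number of KMT2D peaks inside the gene or within 100 kb of it. Irf2bp1 has 1 peak, Irf2bp2 has 8 and Irf2bpl has 10, and 87 of all genes have 8 or more.

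None of the 19 summits lay inside a member. Just 1, at the Irf2bpl start, was within 2 kb of a member's end, a place where 5.08% of protein-coding genes had a summit. The genes themselves are short, at 2706 bp for Irf2bp1, 4112 bp for Irf2bpl and 5691 bp for Irf2bp2, against a median of 17220 bp over protein-coding genes. Measured from the member alone, the peaks thus lay more than 2 kb away except at the Irf2bpl start. By side, there were 6 upstream and 2 downstream of Irf2bp2, 4 upstream and 6 downstream of Irf2bpl, and 1 downstream of Irf2bp1. Some of these summits lay at another gene. The Irf2bp1 summit was inside Dmpk, 651 bp from its nearest end. An Irf2bp2 summit was 247 bp from Gm31546, and an Irf2bpl summit was in the Gm40491 start window.

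**Figure D3:**
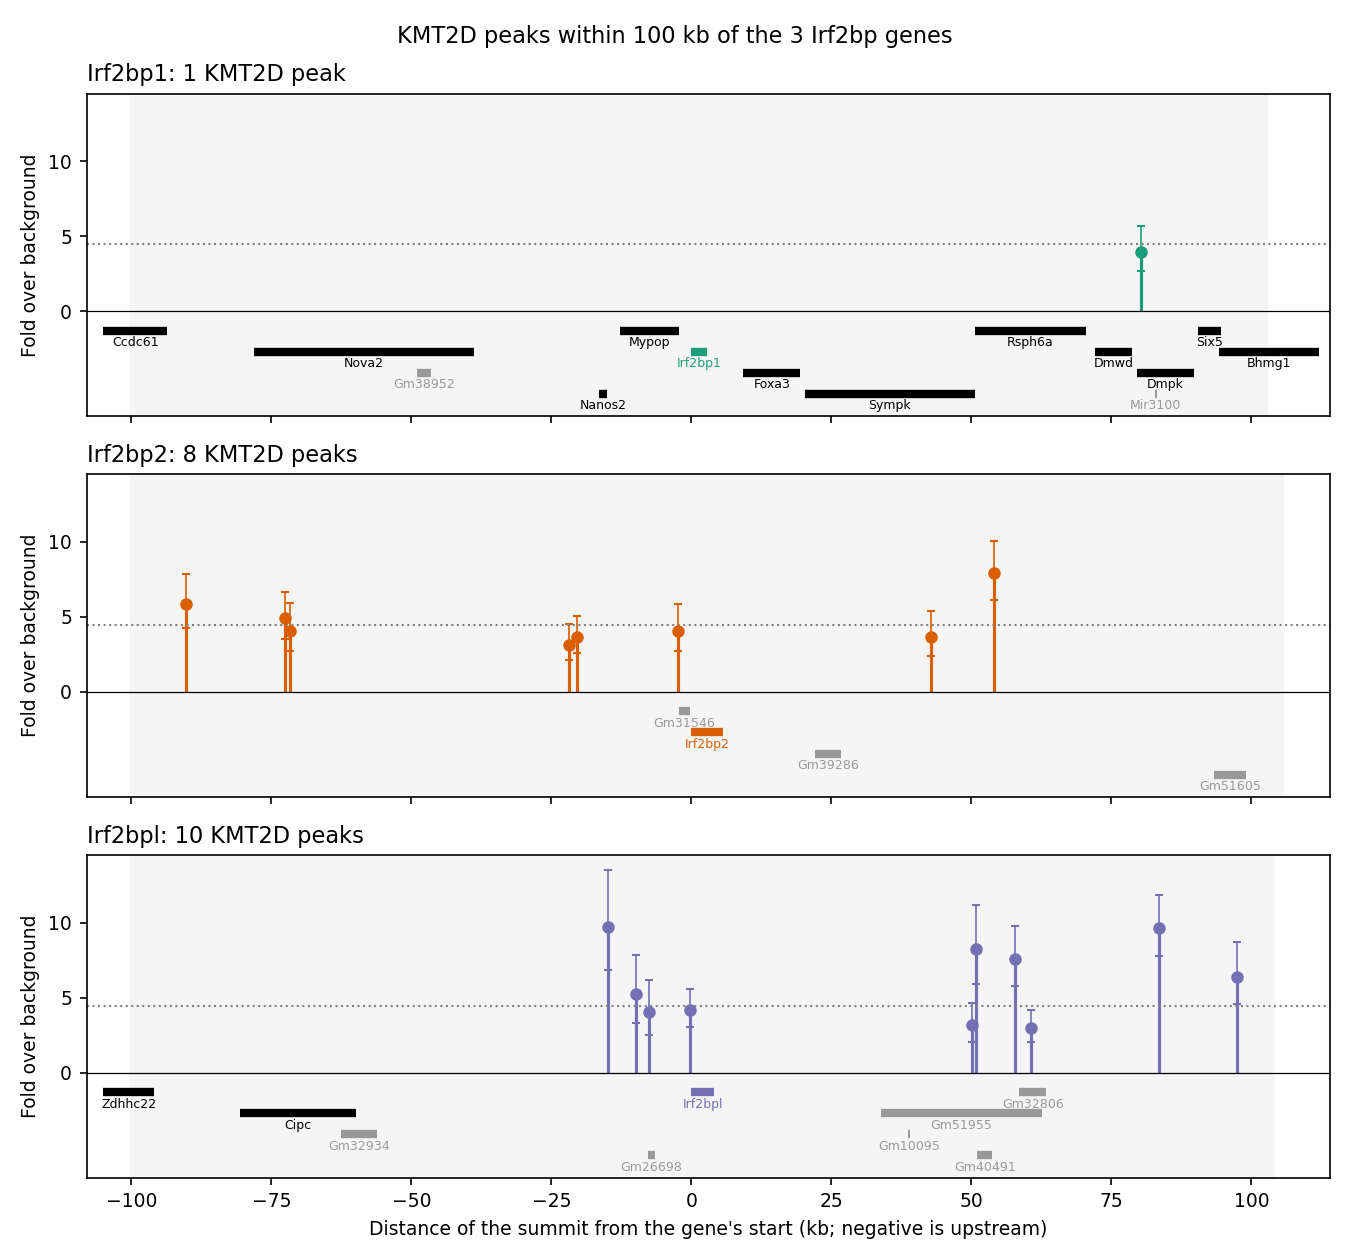
Fold over background (with 95% Poisson intervals) against distance of each summit from the start of Irf2bp1, Irf2bp2 and Irf2bpl in kb; the shaded span is the 100 kb window, the dotted line the list median of 4.47, and bars below are genes (black protein-coding, grey other, coloured the member). Irf2bpl has separate upstream and downstream groups, Irf2bp2 has peaks on both sides with no other protein-coding gene in the window, and the Irf2bp1 peak is over Dmpk.

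Irf2bpl, the member with the most peaks, also had the higher median fold, 5.81 against 4.08 at Irf2bp2. Irf2bpl held both the highest and the lowest fold of the 19 peaks. Fold here is the authors' ratio of the ChIP pileup to the background at the summit, and the intervals given are exact 95% Poisson intervals of the pileup, which cover counting error only. The 10 folds ran from 2.99 to 9.74 with a median of 5.81, and 5 reached 5.77, the upper quartile of the list. The median over all 3706 peaks on chromosomes was 4.47. Backgrounds differed between peaks. With each set to the list median of 6.05 fragments, the ratios at Irf2bpl ran from 2.84 to 12.6. Those at Irf2bp2 ran from 3.54 to 9.36.

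Upstream of Irf2bpl, 4 summits lay within 14.9 kb of the start. The farthest, 14904 bp upstream at chr12:86899570-86899944, had the highest fold of all 19 peaks, 9.74 (6.83 to 13.5), from 34 ChIP fragments over a background of 2.59. It ranked 115th of the 3706 peaks by fold. The next, 9888 bp upstream, had a fold of 5.22 (3.32 to 7.86) and was 782 bp wide. The third, 7609 bp upstream and inside the long non-coding RNA gene Gm26698, had 4.04 (2.51 to 6.20). The peak at the start itself had 4.19 (3.06 to 5.60), with more fragments, 43, but over a background of 9.51. The 3 summits nearest to the start could not be ordered within their counting error, and the interval of the 14.9 kb peak lay above that of the start peak and of the 7.6 kb peak with each background held fixed. With the median background of the list, 6.05 fragments, under both, the 14.9 kb peak had a ratio of 4.96 and the start peak 6.24, the reverse order.

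Downstream of Irf2bpl, 6 summits lay between 46.0 and 93.4 kb past the end of the gene, with an empty stretch of 50282 bp between the first of them and the summit at the start. The broadest and deepest was 79.4 kb away at chr12:86800905-86801942. It was 1038 bp wide, wider than or level with 99.4% of peaks, and had 88 fragments over 8.22, a fold of 9.66 (7.77 to 11.9). Its interval lay above those of 4 of the other 9 Irf2bpl peaks. The farthest inside the window, 93.4 kb away, had a fold of 6.40 (4.58 to 8.73).

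The other 4 downstream summits stood within 10.5 kb of each other, among the long non-coding RNA genes Gm51955, Gm40491 and Gm32806. Their folds were 3.16 (2.07 to 4.64) at 46.0 kb, 8.23 (5.91 to 11.2) at 46.7 kb, 7.56 (5.76 to 9.76) at 53.6 kb and 2.99 (2.08 to 4.16) at 56.5 kb. The 2 summits of higher fold thus lay between the others, with intervals that did not overlap theirs while each background was held fixed. Part of this gap lay in the background: the 46.7 and 56.5 kb summits had 39 and 33 fragments over 3.86 and 10.38, and with the median background of the list their ratios were 5.67 and 4.82. Those of the 46.0 and 53.6 kb summits were 3.54 and 8.22. The summits at 46.0 and 46.7 kb were 736 bp apart, the closest pair at any member. The 46.7 kb summit is the one in the Gm40491 start window printed above.

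Not all Irf2bpl peaks had Irf2bpl as the nearest protein-coding gene. It was nearest for 7 of 10. For the summits 56.5, 79.4 and 93.4 kb downstream, Lrrc74a was nearer, at 55134, 32303 and 18282 bp, so the broadest peak of the family is closer to another gene. Whether any of these peaks acts on Irf2bpl, Lrrc74a or another gene was not tested.

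Irf2bp2 had 8 peaks, and it was the sole protein-coding gene within the window and the nearest one for all 8. The 8 folds ran from 3.15 to 7.90 with a median of 4.08, and 3 were above the list median.

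The strongest Irf2bp2 peak lay downstream, 48.4 kb past the end of the gene at chr8:126539334-126540105. It was 772 bp wide and had 65 fragments over 7.35, a fold of 7.90 (6.13 to 10.04). Its interval lay above those of 5 of the other 7 Irf2bp2 peaks. The other downstream summit, at 37.1 kb, had a fold of 3.68 (2.41 to 5.40).

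Upstream of Irf2bp2, the nearest summit was 2429 bp from the start, with a fold of 4.07 (2.73 to 5.85), and 247 bp from Gm31546, a long non-coding RNA gene that lies between it and Irf2bp2. Close pairs followed: summits at 20.4 and 21.8 kb, 1491 bp apart, had folds of 3.67 (2.60 to 5.04) and 3.15 (2.13 to 4.50), and summits at 71.8 and 72.7 kb, 902 bp apart, had 4.08 (2.72 to 5.90) and 4.91 (3.54 to 6.64). The farthest, at 90.2 kb, had 5.88 (4.29 to 7.87). Within each pair the intervals overlapped, and the 6 upstream summits stood between percentiles 15.1 and 76.4 of the list by fold.

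Irf2bp1 had a single peak, 77.5 kb downstream at chr7:19084226-19084677, with 28 fragments over 6.32 and a fold of 3.96 (2.68 to 5.67). The summit lay inside Dmpk, the kinase gene that carries the myotonic dystrophy repeat in people, 651 bp from its nearest end. The window of Irf2bp1 held 11 other protein-coding genes, among them Mypop, Foxa3 and Sympk, so this peak is tied to Irf2bp1 by distance alone. The window of Irf2bpl held 2 others and that of Irf2bp2 none, against a median of 5 genes, the gene itself included, over all protein-coding genes.

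**Figure D4:**
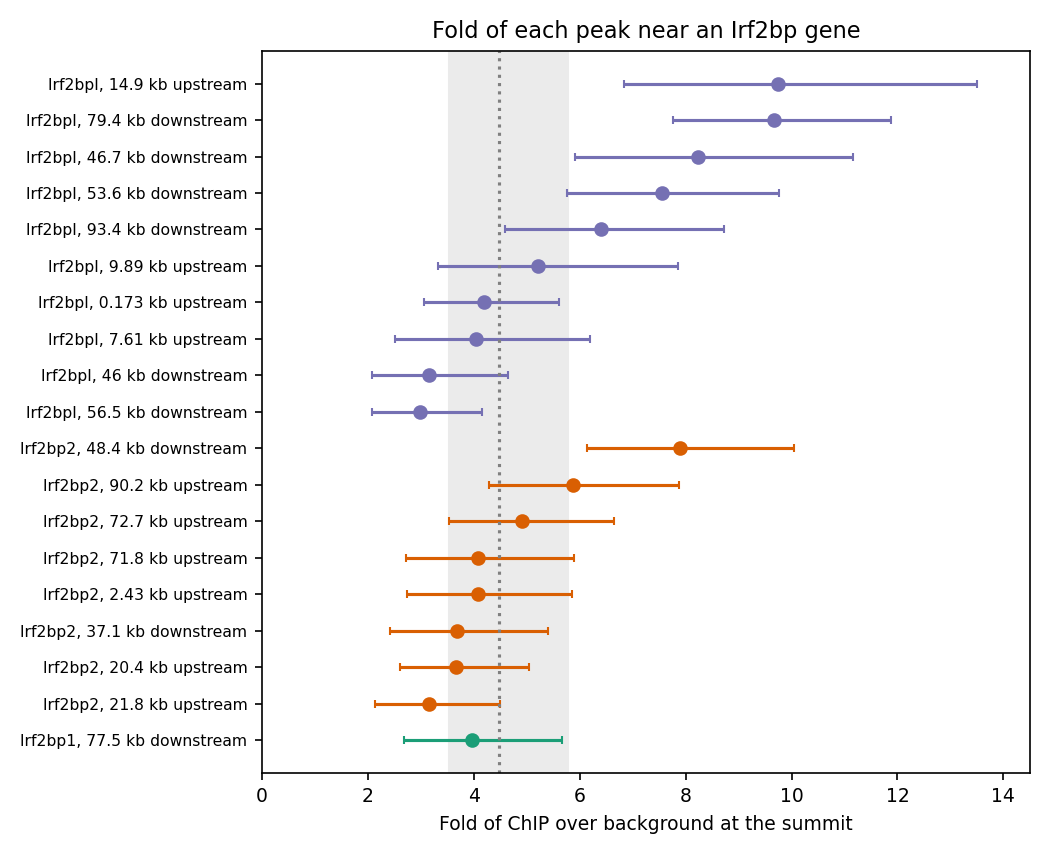
Fold of ChIP over background at the summit for the 19 peaks, labelled by gene and distance, with exact 95% Poisson intervals; the dotted line is the list median of 4.47 and the band is the interquartile range of the list, 3.53 to 5.77. The 5 highest Irf2bpl peaks and the highest Irf2bp2 peak have intervals above the median line.

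Fold and fragments did not give the same order of peaks. The highest fold, 9.74, at 14.9 kb upstream of Irf2bpl, rested on 34 fragments and the lowest background of any member peak, 2.59. The peak with the most fragments, 88, had a fold of 9.66. Over all member peaks the backgrounds ran from 2.59 to 10.38, and over the list the middle range was 4.32 to 8.22 with a median of 6.05. With every background set to that median, the upstream peak had a ratio of 4.96 and the peak 79.4 kb downstream 12.6, so the order of the 2 rests on the local background. The 3 upstream peaks of Irf2bpl away from its start all had backgrounds below 4 fragments (2.59, 3.21 and 3.95), while the start peak had 9.51. What set these local differences was not tested.

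**Figure D5:**
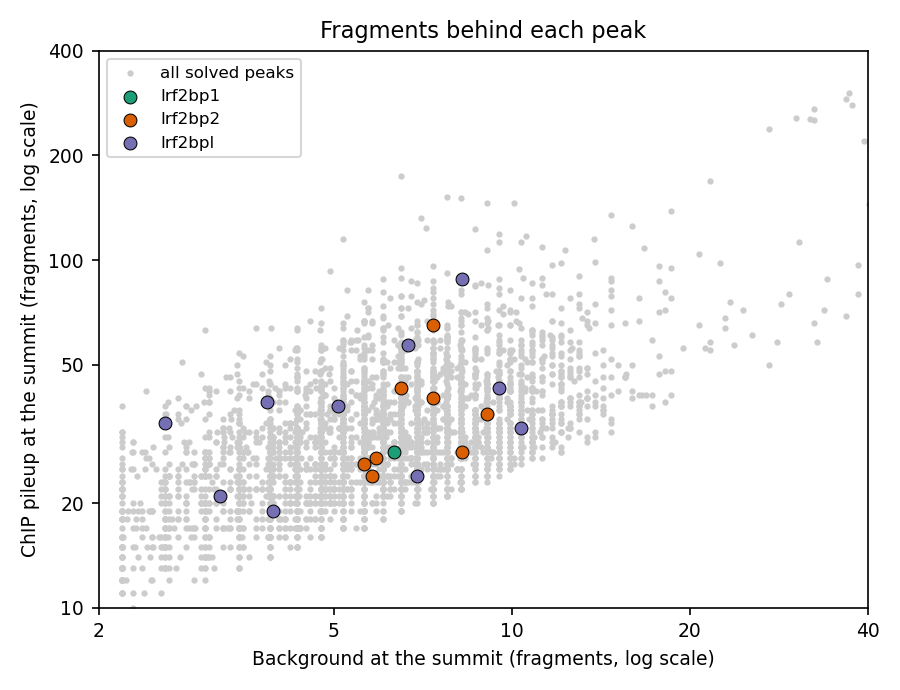
ChIP pileup against background at the summit in fragments (both axes log scale) for the Irf2bp1, Irf2bp2 and Irf2bpl peaks and, in grey, 3638 of the 3683 peaks on chromosomes for which both could be solved. Member peaks lie among the other peaks, with the 79.4 kb downstream peak of Irf2bpl the deepest at 88 fragments.

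Spacing follows in part from the counts that the rule used, since 8 or 10 summits in such a window cannot lie far apart, and it is given as a description. Neighbouring summits were a median of 6910 bp apart at Irf2bpl (736 to 50282) and 17538 bp at Irf2bp2 (902 to 49921). When summits up to 10 kb apart were joined, a distance chosen after the data were seen, Irf2bpl had 2 groups of 4 and 2 single summits. Of 3055 groups in the whole list, single summits included, 462 had 2 or more summits and 37 had 4 or more. The upstream group spanned 14.7 kb with 117 fragments in all at its summits, and the downstream group 10.5 kb with 153. Irf2bp2 had 2 pairs and 4 single summits. Joining up to 20 kb gave Irf2bp2 2 groups of 3 and a pair, and left the 2 groups of 4 at Irf2bpl as they were.

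Long non-coding RNA genes lay near several of these peaks. Of the 19 summits, 6 were inside or within 2 kb of one, 5 at Irf2bpl and 1 at Irf2bp2, where 20.3% of all peaks on chromosomes were. Just outside the window, the next summits were 110128 bp from Irf2bpl (fold 2.82), 141570 bp from Irf2bp2 (2.95) and 265595 bp from Irf2bp1 (3.15), while the farthest inside were 93396 bp (6.40), 90207 bp (5.88) and 77534 bp (3.96) away.

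Genes whose products are tied to the family were examined as 39 genes in 5 lists, and 20 of them had a summit inside or within 100 kb, where 35.8% of all protein-coding genes did. No related gene had as many peaks as Irf2bp2 or Irf2bpl. Irf1, an interferon-induced activator that binds the same DNA element as IRF2, came nearest with 5, the strongest 18.6 kb from the gene with a fold of 6.57 (4.92 to 8.60). Irf2, which gave the family its name, had none. Of the 9 interferon regulatory factor genes, 5 had a peak within 100 kb and none at an end. The highest peaks near Irf3, Irf7, Irf8 and Irf9 were 50.6, 98.1, 91.4 and 71.7 kb away, each nearer to another protein-coding gene.

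The NFAT genes encode calcium-regulated transcription factors and the tonicity-responsive Nfat5. They were the one list in which each member, 5 of 5, had a peak inside or within 100 kb. Of all protein-coding genes, 35.8% had one, a share not matched for gene length. The lists were chosen with earlier results known, so nothing is read from the 5 of 5. Nfatc1 had 2 peaks inside the gene, the higher with a fold of 8.83 (6.51 to 11.7). Peaks at a gene end were found at Nfat5 (fold 4.72, 49 bp from an end) and Nfatc4 (4.70, 1197 bp). The highest peak near Nfat5, 7.83 (5.96 to 10.1), was 86.9 kb away and nearer to Cyb5b. That near Nfatc3, 3.82 (2.59 to 5.47), was 92.8 kb away and nearer to Slc12a4.

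Of the NCoR corepressor complex, which carries the histone deacetylase HDAC3, 4 of 6 genes had a peak within 100 kb. Of all protein-coding genes, 35.8% had one, which is also the share to set beside the list counts below. Lists of 6 to 10 genes are too small to be read against it. Tbl1x (3.88) and Tbl1xr1 (4.78), which encode its WD40 subunits, had a peak at an end, and Hdac3 and Gps2 had no peak in the window. Among VGLL, TEAD and YAP genes, 2 of 10 had a peak. Vgll4, the cofactor that binds IRF2BP2, had 3 inside the gene, up to 6.28 (4.53 to 8.49), and Wwtr1, which encodes TAZ, had 2. Yap1 and the 4 TEAD genes had none. Of the 9 other partners or targets, 4 had a peak, with Vegfa, the vascular growth factor gene, the 1 with a peak at an end (3.46). Peaks at an end were thus found at 5 of the 39 related genes, against 5.08% of protein-coding genes.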

How the data were processed

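KMT2D ChIP-seq of wild-type HT22 cells was available as 1 peak list made by the authors from 1 ChIP and 1 input library. The submitters' processing notes name Bowtie2, Picard, MACS2 and the build mm10; settings are unstated. For each peak the authors deposited a fold or ratio of ChIP to background, a p-value and a q-value (each as −log10), a score (unused) and the summit position. The lowest deposited −log10 q was 1.32. Positions count from 1.

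Library totals are not known from the list. The ChIP pileup n and background b of each summit were solved from the deposited fold, taken as (n + 1) / (b + 1), and the Poisson p-value; the recomputed −log10 p was within 0.001 for 3690 of 3738 peaks (98.7%) and all 19 described. The procedure recovered 100.0% of 500 simulated pileups. These were simulated with the same formulas, so the recovery checks the solving and not whether the peak caller used them. The handling of multi-mapped reads is unstated.

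Genes came from RefSeq GRCm38.p6 (49591 on the main chromosome sequences, 21770 protein-coding) and strand from its table of gene starts, which held all 3 members. The peaks were analysed with Python 3.11.15, pandas 2.3.3, numpy 2.4.6, scipy 1.17.1 and matplotlib 3.10.9. No test was run. Named genes were the members, the genes nearest to their peaks, and related genes with a peak at an end (within 2 kb) or among the 4 highest folds (1 gene that this rule takes is not reported here); other genes and Gm40491 were named after their values were seen. Members and lists were chosen with earlier results of these data known. Alternatives were windows of 20, 50 and 200 kb, stricter peak thresholds, whole intervals, nearest-gene assignment and removal of peaks with backgrounds above 20. Protein sequences and peak sequence outside gene starts were not used here.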

Additional observations from a re-analysis of the deposited data

How the results depend on the processing

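The counts depended on the window and on the peak threshold by construction, since fewer peaks were counted. With 50 kb, Irf2bpl had 6 peaks (5 outside 2 kb of its ends), Irf2bp2 5 and Irf2bp1 0. With 20 kb these were 4 (3 outside), 1 and 0, and 13 of the related genes had a peak. With peaks below the median −log10 q left out, Irf2bpl had 6 (5 outside), Irf2bp2 3 and Irf2bp1 0, with 2 related genes having an end peak. With peaks below the upper quartile of fold left out, they had 5 (5 outside), 2 and 0, with 9 related genes near a peak and 0 having one at an end. Counting peaks for their nearest protein-coding gene alone left Irf2bp1 with 0, Irf2bpl with 7 and Irf2bp2 with 8, and 11 related genes. A window of 200 kb gave 11, 9 and 1 peaks. Whole intervals, and removal of peaks with a background above 20 fragments, changed none of the counts of the members or the related genes. The share of all protein-coding genes was counted under the main setting alone. The related-gene counts of the other settings therefore have no background beside them, and nothing is read from them.

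The order Irf2bpl, Irf2bp2, Irf2bp1 held in each of these settings except nearest-gene assignment, where Irf2bp2 had 8 against 7. Median spacing moved most with the upper quartile of fold, to 19876 bp at Irf2bpl and 144274 bp at Irf2bp2; with 20 kb Irf2bp2 had 1 peak and no spacing. With the list's median background, a setting added after seeing the data, the highest ratios were 12.6 at Irf2bpl, 9.36 at Irf2bp2 and 4.11 at Irf2bp1. Median pileups of 30 fragments limit single folds to intervals such as 2.68 to 5.67, so most neighbouring folds are not ordered by these data.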

Other observations

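Both members with many peaks carried a broad one on the downstream side. Of the 19 peaks, 3 were at least 600 bp wide. Those downstream were 1038 bp at 79.4 kb from Irf2bpl and 772 bp at 48.4 kb from Irf2bp2. The other was 782 bp at 9.89 kb upstream of Irf2bpl. In this order they were wider than or level with 99.4%, 97.5% and 97.6% of peaks on chromosomes. The share of the whole list at 600 bp or more was not counted, so the 3 of 19 have no background beside them and nothing is read from that count. The 2 downstream peaks had the most fragments of their gene, 88 and 65, while the upstream one had 21 over a background of 3.21. This grouping was made after the values were seen and was not tested.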
